A study of Homo sapiens with 6 samples.

Results

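C5 and 8 other complement genes that epithelial cells can make were followed in Caco-2 cells, a line from a human colorectal adenocarcinoma with enterocyte-like features. The cells had received either a small interfering RNA (siRNA) that targets SDC1 or a negative control siRNA. SDC1 encodes syndecan-1, a heparan sulfate proteoglycan of the epithelial surface. Total RNA was measured on 6 oligonucleotide arrays, 3 per siRNA, and both groups were transfected. The 9 genes were taken by symbol: the components C5, C3 and CFB, the soluble regulators CFI, C4BPB and SERPING1, and the membrane regulators CD46, CD55 and CD59. They were measured by 19 of the 41091 probe sets that carry 1 gene symbol, and stand among 19775 genes. C5 was picked because its difference between the siRNAs was already known to be large, so that difference is described here without a test. The other 8 were picked for their roles, with earlier results of these arrays known. The replicates are numbered in the labels and called independent, but nothing says that they came from separate cultures. The p-values therefore reflect the spread from array to array, part or all of which may be technical.

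Complement is a cascade of plasma proteins that tags and lyses microbes. Its classical, lectin and alternative pathways meet at the cleavage of C3, and the enzyme formed there then cuts C5. One C5 fragment attracts leukocytes and the other starts the pore called the membrane attack complex. The liver makes most circulating complement, and intestinal epithelium makes some of its own. Host cells hold the cascade in check with soluble inhibitors and with membrane proteins such as CD46, CD55 and CD59.

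The deposited values are log2 signals from which the median of the 6 arrays had been subtracted for every probe set. A value of 0 is thus the middle of the 6 arrays for that probe set, and a difference of 1 is a 2-fold change. Levels of different genes cannot be compared. A rough brightness was read from the storage steps of the numbers, which place the log2 signal before centring at 8 to 16, at 4 to 8 or below 4. C5, CD46, CD55 and CD59 had probe sets in the 8 to 16 class, while C3, CFB, CFI, C4BPB and SERPING1 had none above 4 to 8. SDC1 itself was 0.84 ± 0.08 (standard error, log2) lower with its siRNA, a 1.79-fold reduction that passed the fit over all genes (limma adjusted p = 0.0238). That call was lost without any single array. Of 11 markers of intestinal epithelium, 5 were in the brightest class (EPCAM, CDH1, KRT8, KRT18 and KRT19). VIL1, CDX2 and ALPI were in the 4 to 8 class, and SI, FABP1 and KRT20 were in the class below 4. None of 6 measured leukocyte markers was in the brightest class. CD3E, CD14 and CSF1R were in the 4 to 8 class, and PTPRC, TYROBP and LYZ were in the lowest.

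C5 was lower with SDC1 siRNA in every array. Its relative log2 signal was 0.31, 0.43 and 0.24 in control replicates 1, 2 and 3, and -0.42, -0.42 and -0.24 in SDC1 siRNA replicates 1, 2 and 3. The groups did not overlap. The lowest control array stood 0.49 above the highest SDC1 siRNA array on the log2 scale, while the arrays spanned 0.19 within the control group and 0.18 within the SDC1 siRNA group. The innermost array of each group mirrors the other about 0, a result of the centring. The control arrays averaged 0.33 ± 0.10 (SD, n = 3), and those with SDC1 siRNA averaged -0.36 ± 0.10 (SD, n = 3). C5 thus differed by -0.69 ± 0.08 (standard error, log2) with a 95% interval from -0.88 to -0.50, a 1.61-fold lower signal. C5 was chosen on this difference, so its size may be overstated, and the interval does not allow for that choice. Among 19775 genes it was number 8 from the lower end and number 11 by absolute size. C5 rested on 1 probe set, 205500_at, so no second probe set can be set beside it. Leaving out each array in turn gave differences from -0.75 to -0.64.

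**Figure D1:**
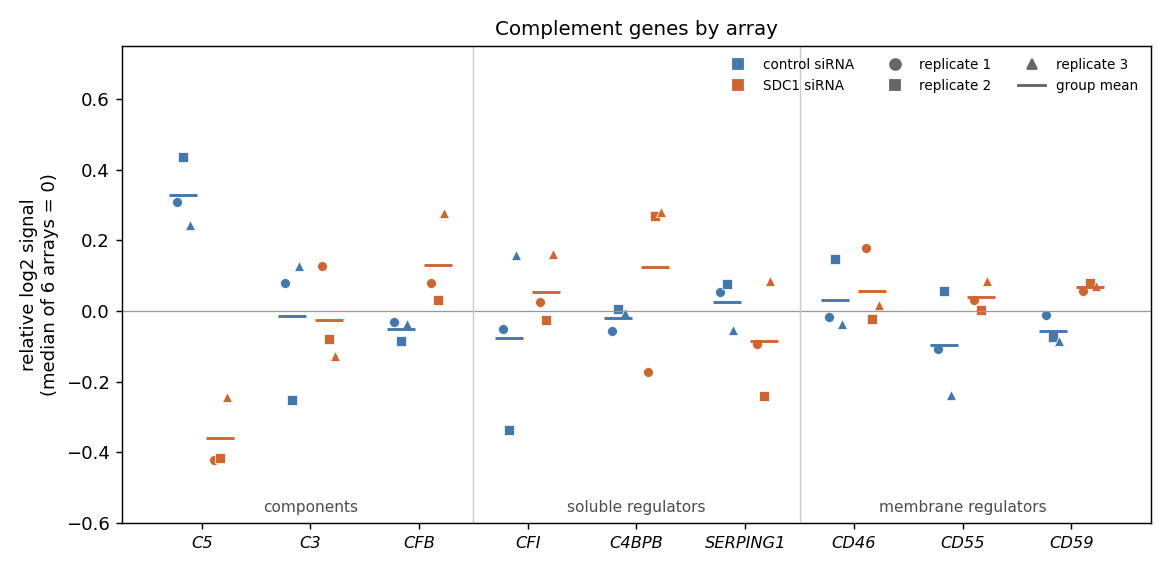
Relative log2 signal of the 9 complement genes in each of the 6 arrays (points; shape gives the replicate number) with group means (bars), control siRNA in blue and SDC1 siRNA in orange, where 0 is the median of the 6 arrays for that gene. The 3 C5 arrays with SDC1 siRNA lie between -0.42 and -0.24 and the 3 control arrays between 0.24 and 0.43, while CFB and CD59 separate by 0.06 and 0.07 and the other 6 genes overlap.

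RefSeq (GRCh38.p14) gives C5 a pair of annotated starts on the minus strand of chromosome 9, and the array values do not show which of them is used. The starts lie 24590 bases apart. The outer start faces CNTRL, a gene for the centrosome protein centriolin, whose first annotated start is 90 bases away on the opposite strand. The stretch between those divergent starts (chr9:121074866-121074954) and the 250 bases before the inner C5 start (chr9:121050276-121050525) are shown because they lie directly upstream of the annotated C5 starts. Both are written 5′ to 3′ on the C5 strand, with capitals marking CpG dinucleotides.
C5 and CNTRL starts: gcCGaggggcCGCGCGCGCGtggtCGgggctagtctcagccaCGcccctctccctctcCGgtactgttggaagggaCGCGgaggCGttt
C5 inner start: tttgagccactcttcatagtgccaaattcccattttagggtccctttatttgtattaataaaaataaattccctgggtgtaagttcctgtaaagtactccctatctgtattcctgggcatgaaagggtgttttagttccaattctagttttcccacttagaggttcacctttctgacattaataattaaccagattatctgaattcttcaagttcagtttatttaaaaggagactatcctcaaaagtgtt
The 89 bases between the divergent starts held 12 CpG and were 71.9% G or C. The 250 bases before the inner start held 0 CpG and were 34.8% G or C. A window of that length without CpG is found at 6.06% of the 35097 annotated starts in the RefSeq promoter table, whose median is 11 CpG. Both strands of the inner window were searched for a C/EBP-type motif (TTGCNNAA, found in 9.05% of all windows), a STAT-type motif (TTCNNNGAA, 6.56%), a TATA motif (TATAAA, 10.7%) and a GC box (GGGCGG, 42.6%). None of these strings was in the inner window or in the stretch between the divergent starts. The shares are for windows of 250 bases and do not apply to the shorter stretch. The full 250 bases before the outer start also held none of the strings. This says only that these letters are not there. The table held 14 windows for 7 of the 9 members. A STAT-type string was in 4 of them (CFB 1, C4BPB 1, CD59 2), a GC box in 4 (CD46 2, CD55 1, CD59 1), a C/EBP-type string in 1 (CD59) and a TATA string in 1 (CFB). Some windows of C4BPB, CD46 and CD59 overlap, so the same string can be counted more than once.

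The measured genes on either side of C5 differed in their values. CNTRL, the divergent neighbour, had relative log2 signals of 0.04, 0.24 and 0.05 in the control replicates and -0.36, 0.04 and -0.17 in the SDC1 siRNA replicates. All 3 SDC1 siRNA arrays were below all 3 control arrays, but the gap was narrow and SDC1 siRNA replicate 2 lay next to the controls. Its difference of -0.28 ± 0.11 (standard error, log2) did not pass over all genes (limma adjusted p = 0.436) and ran from -0.38 to -0.18 when single arrays were left out. The CNTRL probe set 205642_at separated the groups (-0.26), while 242916_at (-0.29) did not. PHF19, which encodes a Polycomb-associated chromatin protein, was at -0.17 ± 0.08 with separate groups (adjusted p = 0.503), or -0.097 without SDC1 siRNA replicate 1. Each of its 3 probe sets overlapped between the groups. Of all genes, 8.47% had separate groups on the lower side. The other neighbours overlapped between the groups. TRAF1, an adaptor of TNF receptors, was at -0.05 ± 0.09, and this turned to 0.02 when all its probe sets were averaged and to 0.01 without SDC1 siRNA replicate 3. The pseudogene CUTALP was at -0.15 ± 0.12, from -0.27 to -0.012 when single arrays were left out and -0.043 when its probe sets were averaged. RAB14, a small GTPase of endosomal traffic, was at 0.12 ± 0.07, and GSN, the actin-severing protein gelsolin, at 0.04 ± 0.07. The RAB14 probe set 200927_s_at (0.12) separated the groups on the higher side, while 211503_s_at (0.11) and 200928_s_at (-0.04) overlapped.

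**Figure D2:**
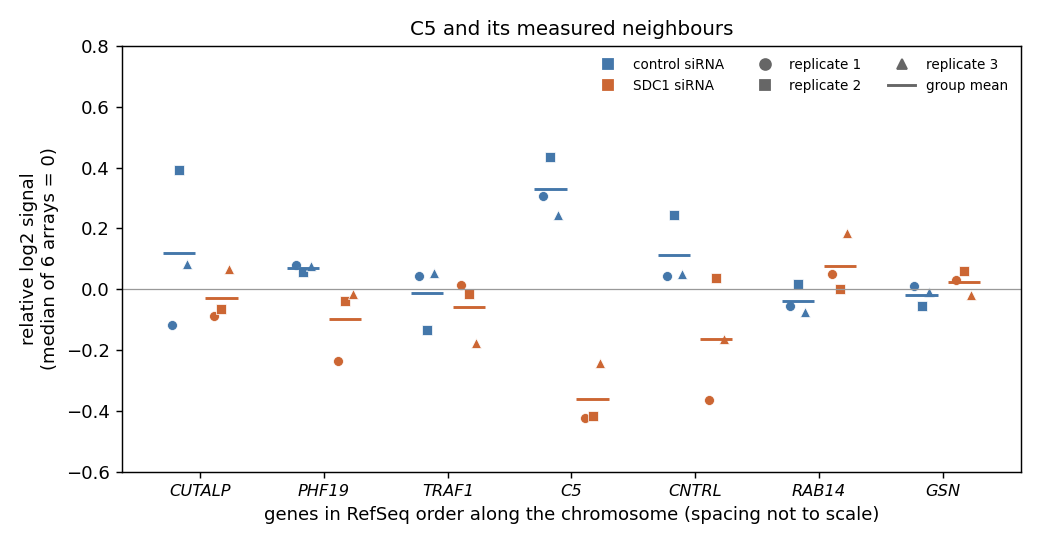
Relative log2 signal in each array (points; shape gives the replicate number) and group means (bars) for C5 and the 3 measured genes on each side of it in RefSeq order, control siRNA in blue and SDC1 siRNA in orange. C5, which was chosen for its large difference, has the widest separation of the 7 genes, CNTRL and PHF19 separate narrowly, and CUTALP, TRAF1, RAB14 and GSN overlap.

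Among the components, C3 and CFB did not share the C5 difference. C3, the hub of the cascade, was at 0.08, -0.25 and 0.13 in the control replicates and 0.13, -0.08 and -0.13 in the SDC1 siRNA replicates. The groups overlapped fully, with control replicate 2 the lowest array. The C3 difference was -0.01 ± 0.12 (standard error, log2; limma adjusted p = 0.983), with a 95% interval from -0.28 to 0.25. It turned above 0 when control replicate 1 or 3 or SDC1 siRNA replicate 2 or 3 was left out. CFB, the protease of the alternative pathway that builds the C3-cleaving enzyme with C3b, was at -0.03, -0.09 and -0.04 in the control replicates and 0.08, 0.03 and 0.28 in the SDC1 siRNA replicates. All 3 SDC1 siRNA arrays were above all 3 controls, by a gap of 0.06. The CFB difference of 0.18 ± 0.08 (log2) did not pass (limma adjusted p = 0.488), and an exact two-sided permutation test over the arrays gave p = 0.1, the smallest value that 3 against 3 allows. It came from the probe set 202357_s_at. The other CFB probe set, 211920_at, was in the class below 4 and stood at -0.17 ± 0.11 (log2) with overlapping groups, so the 2 CFB probe sets pointed in opposite directions. Their mean was 0.01.

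The soluble regulators overlapped between the groups. CFI, the protease that cuts C3b and C4b, had a difference of 0.13 ± 0.12 (log2; limma adjusted p = 0.758). Its lowest array was control replicate 2 at -0.34, and without that array the CFI difference was near 0. Its dim probe set 1555564_a_at was at -0.08 ± 0.12, opposite in sign to 203854_at. C4BPB encodes the beta chain of C4b-binding protein, which assists CFI. Its control arrays lay close together at -0.06, 0.00 and 0.00, while the SDC1 siRNA arrays were at -0.17, 0.27 and 0.28. SDC1 siRNA replicate 1 was thus the lowest of the 6 arrays and replicates 2 and 3 the highest, and the difference was 0.14 ± 0.12 (log2; limma adjusted p = 0.724), or 0.29 without SDC1 siRNA replicate 1. SERPING1, the C1 inhibitor that blocks the first proteases of the classical and lectin pathways, was at 0.05, 0.08 and -0.05 in the control replicates and -0.09, -0.24 and 0.08 in the SDC1 siRNA replicates. SDC1 siRNA replicate 3 was its highest array. The SERPING1 difference was -0.11 ± 0.09 (log2; limma adjusted p = 0.733), or -0.03 without SDC1 siRNA replicate 2.

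The membrane regulators were at or slightly above 0. CD59, the lipid-anchored inhibitor of the membrane attack complex, was at -0.01, -0.07 and -0.09 in the control replicates and 0.06, 0.08 and 0.07 in the SDC1 siRNA replicates. The groups were separate by 0.07, and the SDC1 siRNA arrays lay within 0.02 of each other. The CD59 difference of 0.13 ± 0.06 (log2) did not pass (limma adjusted p = 0.532), with an exact two-sided permutation p = 0.1, and leaving out single arrays gave 0.11 to 0.15. The 3 CD59 probe sets whose names mark shared sequence (200983_x_at, 200984_s_at and 200985_s_at) gave 0.17, 0.18 and 0.17, each with separate groups, as for 7.06% of all probe sets on the higher side. The CD59 probe set 212463_at, of the same brightness class, gave -0.01 ± 0.10, and the dim 228748_at gave -0.11 ± 0.13. The gene's value therefore rested on the shared-sequence probe sets, and without them CD59 stood at -0.01.

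CD55, which takes apart the C3- and C5-cleaving enzymes, had a difference of 0.14 ± 0.09 (log2; limma adjusted p = 0.631), or 0.065 without control replicate 3 and 0.21 without control replicate 2. Its control arrays spread from -0.24 (replicate 3) to 0.06 (replicate 2), and its SDC1 siRNA arrays from 0.00 to 0.08. Control replicate 2 lay among the SDC1 siRNA arrays. The 3 CD55 probe sets gave similar values of 0.12, 0.13 and 0.16. CD46, the cofactor with which CFI cuts C3b and C4b on host cells, was at 0.03 ± 0.08 (log2; limma adjusted p = 0.949), and its 3 probe sets gave 0.03, 0.06 and 0.06. Its 95% interval ran from -0.17 to 0.22. The CD46 difference turned below 0 without SDC1 siRNA replicate 1 (-0.03) or control replicate 3 (-0.01).

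**Figure D3:**
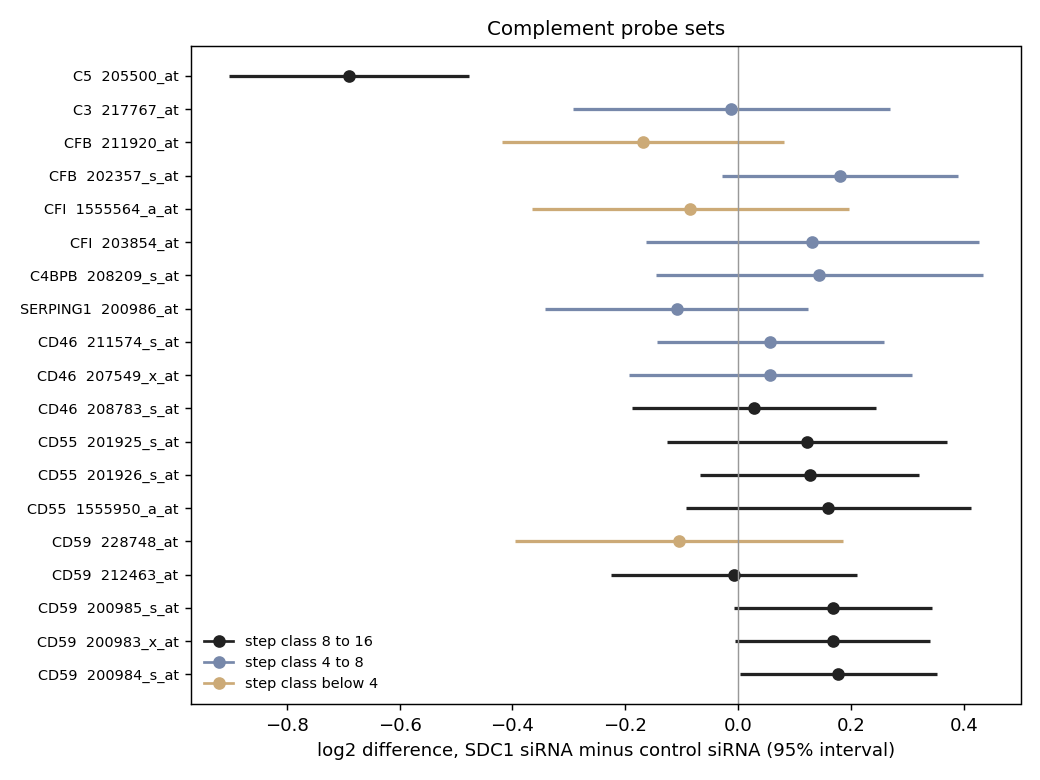
Log2 difference between SDC1 siRNA and control siRNA (points) with 95% intervals (lines) for the 19 probe sets of the 9 complement genes, coloured by the brightness class read from the storage steps. The C5 probe set stands at -0.69, the other 18 lie between -0.17 and 0.18, and the probe sets of CFB, CFI and CD59 fall on both sides of 0.

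Set beside each other, the 3 components had differences of -0.69, -0.01 and 0.18 and a median of -0.01, and the 6 regulators ran from -0.11 to 0.14 with a median of 0.13. Over all genes the median was 0.01 and 52.1% were above 0. Of the regulators 5 of 6 were above 0, and of the components 1 of 3. The component median followed C3 and moved between -0.13 and 0.06 as single arrays were left out. Without probe sets whose names mark shared sequence the component median was -0.17. That was the CFB value from its dim probe set 211920_at, while C3 stayed at -0.01. The regulator median was 0.06 under that choice, from 4 genes, and 0.06 when all probe sets of a gene were averaged. In the limma fit over all 19775 genes, 5 genes passed an adjusted p of 0.05 (0.0253%). They were ADAMTS18, GPRC5A, LGSN, MPDZ and SDC1, so C5 was not among them. Of the 8 members other than C5, 0 passed and 0 were at an unadjusted p under 0.05 (10.6% of all genes). Groups were separate for 3 of the 9 members, C5 lower and CFB and CD59 higher, against 16.7% of all genes (8.47% lower and 8.26% higher). Nothing is read from these shares for C5, which was chosen on this contrast.

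The members did not follow one order of arrays. Over the 6 arrays, the Pearson correlation with C5 was -0.91 for CD59, -0.65 for CFB and 0.62 for SERPING1. C3 (-0.15) and CD46 (-0.09) had the values nearest 0. These correlations contain the group difference and share the same 6 arrays, and 329 of all genes had a correlation below -0.90 and 525 one above 0.90. The genes most like C5 by this measure were CSNK1A1, a casein kinase of Wnt signalling (r = 0.998 over 6 arrays), NLRP2, a NOD-like receptor protein (0.997), and GNPAT, a peroxisomal enzyme of ether lipid synthesis (0.996). METTL6, a tRNA methyltransferase (0.996), and ODAM, a secreted protein of the tooth-forming epithelium (0.996), followed. Their log2 differences were -0.21, -0.21, -0.35, -0.21 and -0.82. CSNK1A1 was at -0.61 without probe sets whose names mark shared sequence, and METTL6 at -0.09 when all its probe sets were averaged. The correlations were not computed again under those choices.

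Other complement genes were taken from 4 textbook lists, of which 39 of 46 genes were measured. None passed over all genes (limma, with 3 at an unadjusted p under 0.05, where 10.6% of all genes were). Of the 39, 24 were above 0 and 15 below, where 52.1% of all genes were above 0. The median difference was 0.06 against 0.01 over all genes. Groups were separate for 3 of the 39 on the higher and 3 on the lower side, against 8.26% and 8.47% of all genes. In brightness, 20 of the 39 were in the class below 4, where no member's value lay. The brightest class held 3, among them CLU, the gene of the lysis inhibitor clusterin, and C1QBP.

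Of 14 classical and lectin components, 6 were above 0 and the median was -0.01. COLEC10, a collectin of the lectin pathway, was at -0.31 ± 0.09 with separate groups (limma adjusted p = 0.287), in the dimmest class. MASP1, a protease of that pathway, was at 0.10 ± 0.07, or 0.030 when its probe sets were averaged. Of 8 alternative and terminal components, 5 were above 0. They include the partners with which C5 builds the membrane attack complex. C8G, the gamma chain of C8, was at 0.21 ± 0.09 (adjusted p = 0.46), and CFD, the protease that activates CFB, was at -0.15 ± 0.07 with separate groups (adjusted p = 0.502). Of 9 other regulators, 8 were above 0 with a median of 0.09. C4BPA, which encodes the alpha chain that pairs with C4BPB, was at 0.12 ± 0.07, and CFHR4, a factor H-related protein, at -0.19 ± 0.11 in the dimmest class. Of 8 complement receptors, 5 were above 0. ITGB2, the shared beta chain of the integrin receptors for C3 fragments, was at 0.18 ± 0.07 with separate groups (adjusted p = 0.412), or 0.04 without probe sets whose names mark shared sequence. C5AR1, the receptor for the C5a fragment, was at 0.10 ± 0.08 in the dimmest class.

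C3 and C5 belong to the alpha-2-macroglobulin protein family. Of its 5 further members measured, 3 were above 0. CPAMD8 was at -0.28 ± 0.08 with separate groups on the lower side (limma adjusted p = 0.266), as for 8.47% of all genes. CD109, a membrane-anchored member, was at 0.17 ± 0.08 with separate groups on the higher side, as for 8.26% of all genes. Acute phase and liver-type secreted proteins, the company in which complement genes are made in the liver, gave 13 of 19 above 0 with a median of 0.07. LBP, the lipopolysaccharide-binding protein, was at 0.28 ± 0.08 with separate groups (adjusted p = 0.292), or 0.10 without probe sets whose names mark shared sequence. TTR, the transport protein transthyretin, was at 0.35 ± 0.18, or 0.14 without control replicate 2. The lowest value in the list was -0.12.

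Cytokines, cytokine receptors and transcription factors known to drive complement genes gave 10 of 16 above 0 and a median of 0.01. In the limma fit 0 of them passed, with 6 at an unadjusted p under 0.05, where 10.6% of all genes were. The groups were separate for 4 higher and 1 lower of the 16, against 16.7% of all genes in either direction. CEBPD, a C/EBP transcription factor of the acute phase response, was at 0.29, 0.45 and 0.12 in the control replicates and -0.17, -0.23 and -0.12 in the SDC1 siRNA replicates. All 3 SDC1 siRNA arrays were below all 3 controls. The CEBPD difference was -0.46 ± 0.09 (limma adjusted p = 0.159), -0.29 when its probe sets were averaged and -0.12 without those of shared sequence. IL6, the cytokine that induces the acute phase response, was at 0.33 ± 0.08 with separate groups (adjusted p = 0.2). Whether either difference bears on C5 was not tested.

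**Figure D4:**
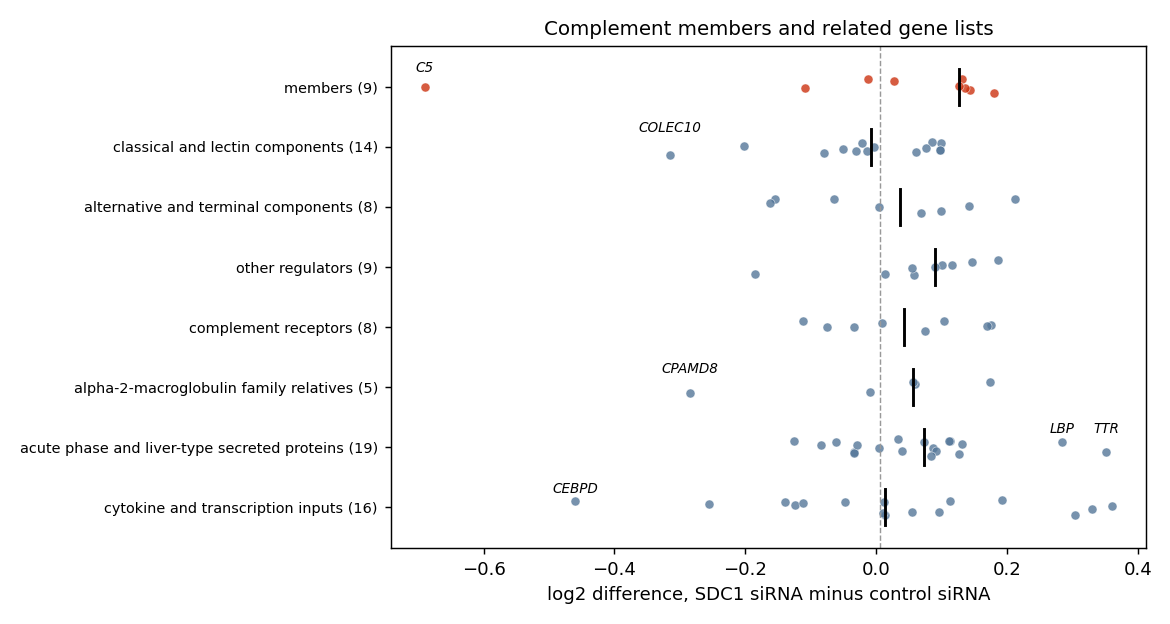
Log2 difference between SDC1 siRNA and control siRNA for the 9 members (red) and for the measured genes of 7 related lists (blue; number of genes in brackets), with list medians (black bars) and the median of all genes (dashed line). C5 lies at -0.69, to the left of every other gene shown, the next being CEBPD at -0.46, and the medians of the 7 lists lie between -0.01 and 0.09.

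Markers of other cell types gave no call. Of 6 hepatocyte markers 3 were above 0, and APOA2 was at -0.30 ± 0.13 (limma adjusted p = 0.47) and CPS1 at 0.14 ± 0.07. ALB, the albumin gene, was in the dimmest class. Of 6 leukocyte markers 2 were above 0 and 0 separated the groups, with CD3E at 0.22 ± 0.10 and CD14 at -0.11 ± 0.12, or 0.03 without control replicate 3. Of 7 fibroblast markers 4 were above 0 and 4 were at an unadjusted p under 0.05 (10.6% of all genes), and the groups were separate for 3 higher and 2 lower (16.7% of all genes in either direction). COL1A2 was at 0.37 ± 0.07 and LUM at -0.62 ± 0.17. Without probe sets whose names mark shared sequence COL1A2 was at 0.12 and LUM at 0.04. The mean of the fibroblast list lay between -0.05 and 0.17 in the control arrays and between -0.06 and 0.00 in the SDC1 siRNA arrays, and its part in the C5 difference was not tested. Of 11 intestinal epithelial markers 8 were above 0, with VIL1 at 0.19 ± 0.09 (0.070 when all its probe sets were averaged) and KRT8 at 0.09 ± 0.07. The mean of that list ran from -0.05 to 0.00 in the control arrays and from 0.01 to 0.04 in the SDC1 siRNA arrays, and its part in the C5 difference was not tested either. The labels give Caco-2 for all 6 arrays, so these lists do not measure shares of hepatocytes, leukocytes or fibroblasts. Fewer Caco-2 cells with a transcript and less of it per cell cannot be told apart in such bulk samples.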

How the data were processed

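The deposited log2 signals came from RMA according to the labels (per the submitters' processing notes), with version and software not given in the sources used here. Centring was read from the values, since all 54675 probe sets had a median of 0 across arrays (tolerance 1e-06). The log2 scale and brightness classes were read from the storage steps of the single-precision numbers (tolerance 0.05 of a step). Of 54613 probe sets after removal of 62 controls, 41091 had 1 symbol in the platform annotation, 1801 several and 11721 none. Symbols were updated through RefSeq (99.9% matched).

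Probe sets of a gene's brightest class were averaged into its value, since centred values hold no level to rank them. The gene fit used limma 3.58.1 under R 4.3.3 (lmFit, eBayes, group only, 6 arrays), with Benjamini-Hochberg adjustment over 19775 genes and a threshold of 0.05. The fit was tested on simulated data. Differences are SDC1 siRNA minus control siRNA with standard errors. The number of arrays limits the precision. Members, lists and tests were chosen with earlier results of these data known. Named genes were the 9 members, SDC1, the 2 with the lowest p per list, the 5 most like C5 and 3 neighbours on each side; further markers named by class were chosen after their values were seen. Alternatives were a robust fit, a replicate block, array weights, a further quantile normalization, median-centred arrays, single arrays left out, a filter on dim genes, all probe sets averaged, and probe sets of shared sequence removed.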

Additional observations from a re-analysis of the deposited data

How the results depend on the processing

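The C5 difference kept its direction in all 14 alternatives (-0.75 to -0.64) and moved by less than the spread between replicates. Array weights gave 16 genes higher and 23 lower past the threshold and 3 probe sets, against 2, 3 and 0. Quantile normalization gave 2 higher and 7 lower (22.2% higher, against 40% in the main setting), the brighter classes 2 higher and 9 lower, and the mean of all probe sets 1 higher. With the replicate block 0 genes passed in either direction and SDC1 stood at -0.84 (adjusted p = 0.0929). The deviations of same-numbered arrays had correlations of -0.01, -0.26 and -0.11, and those of differently numbered arrays ran from -0.15 to 0.21. With 3 arrays per group these correlations cannot decide whether the numbers pair the arrays. Leaving out single arrays gave 0 to 1 genes higher, 0 lower, SDC1 from -0.92 to -0.78, a component median from -0.13 to 0.059 and a regulator median from 0.072 to 0.14. Without _x_at and _s_at probe sets CFB turned to -0.17 and CD59 to -0.0076, the component median was -0.17 and the regulator median 0.062 (0.063 when all probe sets of a gene were averaged). C3 turned to 0.015 and 0.039 without SDC1 siRNA replicates 2 and 3, and to 0.035 and 0.059 without control replicates 1 and 3, a range from -0.13 to 0.059 over single arrays left out. CD46 turned to -0.033 without SDC1 siRNA replicate 1 and -0.0072 without control replicate 3, a range from -0.033 to 0.086. The causes were not tested. The counts past the threshold stayed at 0 in all 14 alternatives for the 8 members other than C5 and for the other complement genes. C5, chosen on this contrast, was left out of these counts.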
